A study of Danio rerio with 6 samples.

Results

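Ceruloplasmin (*cp*), metallothionein 2 (*mt2*) and the transporter gene *flvcr2a* are the 3 genes described here, of 223 genes in the deposited table from dissected whole eyes of zebrafish larvae at 72 hours post fertilization (hpf). They were chosen by gene symbol from a table whose rows the authors had already selected on adjusted p-value, fold change and FPKM in the contrast of *crim1*-/- eyes with controls. Their presence in the table is therefore the selection itself and not a finding. By the sample labels, 3 wildtype libraries and 3 *crim1*-/- libraries were sequenced, while the series description gives 2 replicates per group. The titles of the *crim1*-/- libraries call them a knockdown and their genotype field gives *crim1*-/-. According to the study's methods, the mutants descend from a single founder with a small frameshift deletion in *crim1*. The mutant larvae came from in-crosses of fish homozygous for the deletion. These parents were raised from homozygous larvae chosen for a normal look with no eye defects. The gene encodes a transmembrane protein, and the paper describes its lens expression in mouse. For zebrafish eyes after 72 hpf the paper cites expression mostly in the retinal pigment epithelium and retinal interneurons. Controls were of EKW or NBT:DsRed origin, the latter a line with labelled neurons, so that genotype and parentage differ together and cannot be told apart. Eyes were pooled for RNA, and nothing in the labels says whether libraries of a group came from separate clutches.

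The table gives 1 usable measurement per gene, the mean normalized count, which is the average over all libraries of both groups of read counts divided by a size factor for each library. The values per library and per group were not analysed here, so no spread, no test and no direction of change is given for any gene. The table's columns for the comparison of the groups are the authors' own and were not used. The depth of the libraries is unknown from these values. In bulk RNA of whole eyes, fewer cells of a type and less RNA per cell cannot be told apart.

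Copper, zinc and iron are cofactors that cells must take up, carry and store without letting free ions react, and heme is the iron-bearing cofactor of hemoglobins and many enzymes. Ceruloplasmin is a copper-bearing ferroxidase that oxidises iron leaving cells so that transferrin can carry it. In mammals it is secreted by the liver and is also made in the retina, where its inherited loss in people leads to iron accumulation and retinal degeneration. Metallothioneins are small cysteine-rich proteins that bind zinc and copper, and their genes are switched on by metals through the transcription factor MTF1. FLVCR-family proteins are membrane transporters that were described in mammals as carriers of heme and later as carriers of choline. Human FLVCR2 is known for its role in brain blood vessels.

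*cp* (ENSDARG00000010312) had a mean normalized count of 253, the authors' mean over all libraries. It was 58th of the 223 listed genes from the highest, with 165 listed genes lower and 57 higher. Its mean was 2.27 times the median of the listed genes, which was 111. The listed genes directly above and below it were the clone-named BX890576.1, with a mean normalized count of 255, and the protease inhibitor gene *serpinb1l2*, with 249. *cp* thus stood just under the third quartile of the table, which was 258.

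*flvcr2a* (ENSDARG00000038957) had a mean normalized count of 245, again the authors' mean. It was 60th of the 223 listed genes, with 163 lower, and its mean was 2.20 times the table's median. Only 1 listed gene, *serpinb1l2*, lay between *cp* and *flvcr2a*. The gene directly below *flvcr2a* was TRIM67, with a mean normalized count of 243. The ratio of the read counts of *cp* and *flvcr2a* was 1.03, and whether they differed beyond the spread of the libraries was not tested.

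*mt2* (ENSDARG00000041623) had the lowest read count of the 3 genes, with a mean normalized count of 28.4. It was 200th of the 223 listed genes, with 23 lower and 199 higher, and the table's median was 3.92 times its mean. It belonged to the 57 listed genes (25.6%) with a mean under 50. The rows directly above and below it were the clone-named CR812464.1, at 31.3, and si:dkey-42l23.7, at 28.2. Multiplied by the 6 libraries of the labels, the mean of *mt2* comes to 170 scaled reads in all, against 1515 for *cp* and 1468 for *flvcr2a*. Any statement on *mt2* in either group therefore rests on a small number of reads. The read count of *cp* was 8.89 times that of *mt2*, and 139 listed genes lay between *mt2* and *flvcr2a*. These are ratios of read counts and not of transcript levels, because longer transcripts give more reads and no transcript length was used here.

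**Figure D1:**
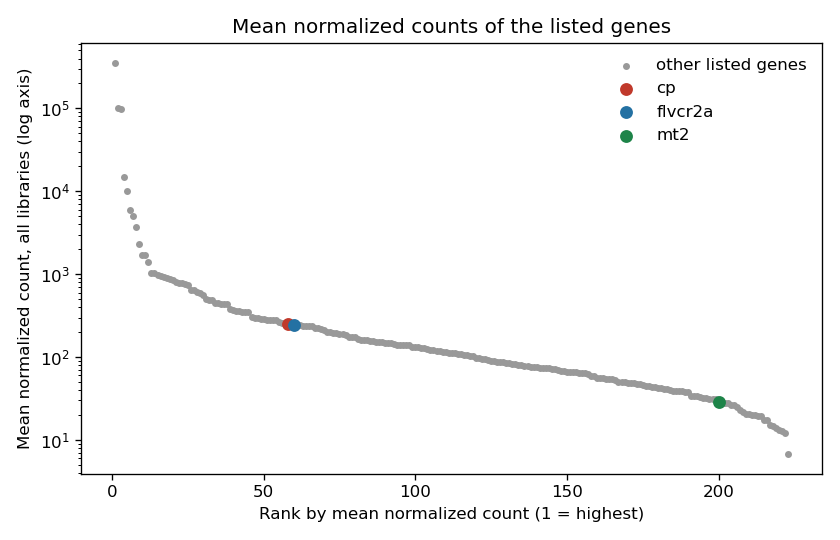
Mean normalized count over all libraries (log axis) of each of the 223 listed genes against its rank from the highest. Each point is 1 gene with no error bar, since values per library were not used; *cp* and *flvcr2a* lie side by side at 253 and 245, and *mt2* lies near the low end at 28.4.

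The listed genes spanned mean normalized counts from 6.76 to 357210, and 14 were over 1000. The 3 metal and heme handling genes together held 0.0818% of the sum of all means, whereas the highest gene alone held 55.6%. None of the 3 was among the most strongly counted genes of the table.

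The other genes of metal and heme handling were looked up in a list of copper, zinc, iron and heme genes, of which 94 are annotated as protein-coding in zebrafish by RefSeq. Of these, 3 were in the table, which are the 3 genes described here. Over all 27039 annotated protein-coding genes, 143 (0.529%) were in the table by symbol. The other 80 rows of the table matched no annotated protein-coding symbol and are left out of this share. Because the list was built around the 3 genes, nothing is read from its count, and without them 0 of 91 annotated genes were in the table. A gene that is not in the table is not thereby shown to be unchanged, since the table holds only genes past the authors' limits.

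Among 15 annotated copper genes, *cp* alone was listed. The copper importer gene *slc31a1* and the copper pump genes *atp7a* and *atp7b* were not listed, nor were *hephl1a* and *hephl1b*, which encode related multicopper oxidases. Among 25 annotated genes of zinc handling and metallothioneins, *mt2* alone was listed. The second annotated metallothionein gene, *mtbl*, and *mtf1*, the gene of the metal-responsive transcription factor, were not listed. Reads that *mt2* and *mtbl* may share were not examined. Among the 30 annotated genes of the heme list, *flvcr2a* alone was listed, and its relatives *flvcr2b* and *flvcr1* were not. The heme list is a selection, and genes outside it, the listed gene *ambp* among them, were not counted as heme genes. The heme oxygenase gene *hmox1a*, whose enzyme breaks heme down, was not listed either. Of 24 annotated iron genes, including the transferrin gene *tfa*, the iron exporter gene *slc40a1* and the ferritin gene *fth1a*, 0 were listed. Beside the share of 0.529% over all annotated protein-coding genes, nothing is read from the counts of these 4 lists.

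Markers of some other cells that could supply these transcripts were looked up in the same way. Markers of the retinal pigment epithelium and of blood vessels were not looked up. Of 16 annotated red blood cell genes, including embryonic hemoglobin genes, 0 were listed. Of 5 genes of Müller glia, the support cells of the retina, 0 were listed, and *cahz* is on both of these lists. Beside the share of 0.529% over all annotated protein-coding genes, nothing is read from these counts of 0. The liver plasma protein list had 18 annotated genes and 3 of these in the table, against 0.529% of all annotated protein-coding genes. Besides *cp* these were *ambp* and *prozb*, a relative of clotting factor genes. *ambp* encodes a precursor of plasma proteins that include a protease inhibitor and a heme-binding protein. It was placed on the liver list only and not on the heme list, so it does not enter the heme count. The heme list does hold other plasma protein genes, such as *hpxa* and *hp*. That *flvcr2a* alone was listed among the heme genes, and the count of 0 of 91 without the 3 genes, therefore depend on this placement. This list too was written with the table's genes known and holds *cp* itself, so nothing is read from its count. The 3 highest rows of the table were the lens crystallin genes *crygm2d17*, *crygm2d20* and *crygm2d9*, with mean normalized counts of 357210, 100967 and 98025. These are read counts averaged over both groups, for genes listed through the contrast of the groups. They therefore do not show how abundant lens transcripts were in the eyes of either group. These crystallins were named after their values were seen, and as close copies they may divide reads among themselves. Levels of the markers that are not listed were not analysed here, and the part of liver or blood RNA in the counts of *cp* was not tested.

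**Figure D2:**
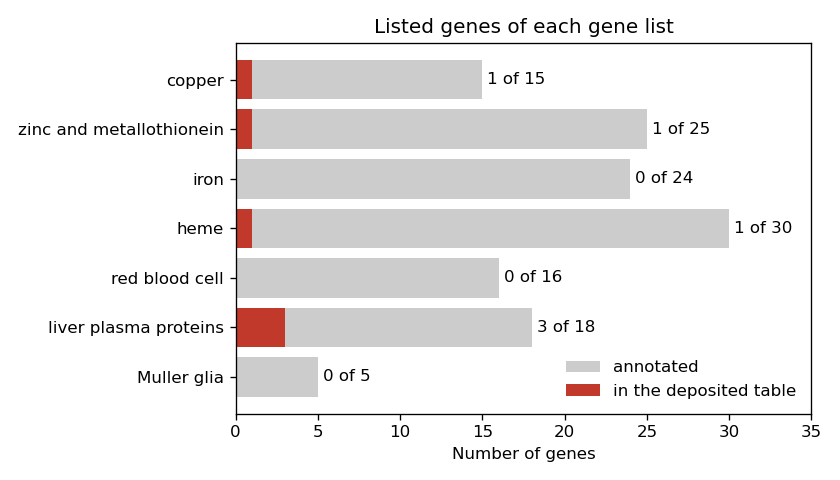
Number of genes annotated as protein-coding (grey) and number of these in the deposited table (red) for each gene list, with both counts written at the bar. The copper, zinc and heme lists each have 1 listed gene, the liver plasma protein list has 3 and the iron, red blood cell and Müller glia lists have 0.

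The 3 genes lie on 3 different chromosomes in the RefSeq annotation of assembly GRCz12tu, which is another assembly than the GRCz11 of the study, so that only gene order was used. Positions were available for 143 of the 223 listed genes, and the other 80, most of them clone-named, were not searched. Among the placed genes, 0 others lay within 10 protein-coding genes of *cp*, *mt2* or *flvcr2a*. Since only 0.529% of all annotated protein-coding genes were in the table, nothing is read from this count of 0. The nearest placed gene to *cp* was *eef2a.1*, 340 protein-coding genes away, and the nearest to *mt2* was si:dkey-8l13.5, 23 genes away. The nearest placed gene to *flvcr2a* was the glutathione peroxidase gene *gpx2*, 51 genes away. *flvcr2a* shares its chromosome with *crim1* at a distance of 200 protein-coding genes, whereas *cp* and *mt2* lie elsewhere. The part of sequence linked to *crim1* in the count of *flvcr2a* was not tested. The direct neighbours in gene order were *tm4sf18* and *hps3* for *cp*, *nup93* and *slc12a3* for *mt2*, and *numb* and *erg28* for *flvcr2a*, and none of these symbols is in the table.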

How the data were processed

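RNA from dissected whole eyes of *crim1*-/- and control larvae was amplified by single primer isothermal amplification and sequenced as single-end reads. Per the methods and the submitters' processing notes, reads were checked with FastQC, trimmed with BBDuk, aligned to GRCz11 with STAR, quantified with RSEM and compared with DESeq2 by the authors, and no tool versions were stated. The deposited table holds a signal, the mean over all libraries of counts that the authors divided by DESeq2 size factors. Its 4 other columns (the log2 fold change with its standard error, and the raw and adjusted p-values) are the authors' own comparison and were not used.

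The planned count test needed values per library and was not made. Rows were matched by the symbol after the gene ID, ranked by mean, and set against 7 gene lists. Of 223 gene IDs, 207 were in the table of gene names, and 143 symbols, those of *cp*, *mt2* and *flvcr2a* included, matched a protein-coding gene of RefSeq's GRCz12tu annotation, used for names and gene order. Protein and promoter sequences were not analysed here. Ranking was tested on simulated data. The genes and lists were chosen with earlier results of these data known. Named are the 3 genes, list and family genes, and adjacent rows by mean. For list and family genes that are not listed, and for neighbours in gene order, examples were chosen after the lookup. Python 3.11.15, NumPy 2.4.6, pandas 2.3.3 and Matplotlib 3.10.9 were used.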

Additional observations from a re-analysis of the deposited data

How the results depend on the processing

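No paired analysis was possible because the table holds no values per library, although the labels number the replicates alike in both groups; for the same reason other normalizations, a filter on low counts and fits without each replicate were not run. The planned values per coding length, protein identities, cysteine shares and promoter motifs were not run, since no sequences or transcript lengths were used here. Matching symbols without regard to case, or with synonyms, again found 3 genes and 3 listed genes of the metal and heme lists. Without the 3 genes themselves, 0 listed genes of those lists were left, since the 3 listed genes are the 3 genes described here. Of the other listed genes, 74.3% had a lower mean than *cp*, 73.4% a lower mean than *flvcr2a* and 10.4% a lower mean than *mt2*. Among the 119 genes without clone-based names these shares were 67.8%, 66.1% and 7.63%, and among the 143 matched to RefSeq they were 67.6%, 66.2% and 7.04%. With 4 libraries, as the series description gives, the scaled reads would come to 114 for *mt2*, 1010 for *cp* and 978 for *flvcr2a*, a count chosen after seeing the data. The unknown depth of each library limits every value.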
